A study of Homo sapiens with 21 samples.

Results

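The 10 transcripts described here in HepG2 cells exposed to caffeine are the 6 genes of the PIKK family (ATM, ATR, PRKDC, MTOR, SMG1 and TRRAP) and 4 partners of the DNA damage and replication checkpoint (CHEK1, CHEK2, ATRIP and CLSPN). They were chosen by name, as the PIKK family and its checkpoint partners, with earlier results of these data known. Each was found by its Ensembl identifier, 10 of 37637 features in the table of read counts. All 10 passed the filter on low counts, which 17951 features passed.

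HepG2 is a line from a human hepatocellular carcinoma. Cultures were moved from medium with serum to serum-free DMEM and kept for 24 h with caffeine at 0.01, 0.1, 1, 10, 100 or 1000 µM, or with none (control). Every group, control included, therefore shares the change to serum-free medium. Each of the 7 groups had 3 libraries, which the series describes as biological replicates, 21 in all, made from poly(dT)-purified RNA. The comparisons ask whether the mRNAs of these family members and partners differ from control at each dose and between doses. Of 9 hepatocyte and HepG2 markers all were present in every library, with ALB between 6110 and 15342 CPM. Of 9 markers of other cell types 7 were matched, and COL1A1, COL1A2, COL3A1, LUM and PTPRC had 2 counts or fewer in any library. VWF had at most 9 counts, while CD68, a leukocyte marker, had 514 to 2122. In a bulk sample fewer cells of a kind and less RNA per cell cannot be told apart.

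Most PI3K-like kinases (PIKKs) are very large serine/threonine kinases, and the family shares a catalytic fold with lipid kinases. ATM is activated at DNA double-strand breaks, ATR with its obligate partner ATRIP at single-stranded DNA of stalled forks, and the product of PRKDC (DNA-PKcs) in end joining. MTOR couples nutrients to growth, SMG1 phosphorylates UPF1 in nonsense-mediated decay, and TRRAP is a family member without kinase activity that recruits acetyltransferase complexes. CHEK2 carries the signal from ATM and CHEK1 that from ATR, while claspin (CLSPN) brings CHEK1 to ATR. Caffeine inhibits several of the kinases, ATM and ATR among them, as proteins, and the measurements here are of mRNA only.

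Libraries of 1 dose did not always resemble each other. Total counts ran from 23502519 to 44815552 per library. Clustering on 13 mitochondrial mRNAs split the libraries into 3 sets that cut across the dose groups. Set A took in every library of control, 0.01 and 0.1 µM and the first 2 replicates of 1 µM (11 libraries), with 9.95% to 14.2% of counts from mitochondrial transcripts. Set B had 7 libraries: every one of 10 µM, the first 2 of 1000 µM, the second of 100 µM and the third of 1 µM, with 4.72% to 4.94%. Set C had the remaining 2 of 100 µM and the third of 1000 µM (3 libraries), with 11.8% to 12.8%. Against control, dose and set are separated only through replicate 3 at 1 µM, the library that links sets A and B within a group. Values are therefore given with and without the set as a term in the fit, and the comparisons of 1000 with 100 µM and of 1000 with 10 µM within set B do not rest on that library.

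The sequence before the start of a gene is shown for 3 members, chosen because CHEK1 and CLSPN rose at 100 µM and fell between 100 and 1000 µM, where MTOR rose. They are examples: CHEK2 and ATRIP also rose and then fell, and ATM and SMG1 also rose between these doses. In RefSeq (GRCh38.p14), 8 of the 10 genes had entries, with 12 listed starts; PRKDC and TRRAP had none. Over 250 bases before each start, both strands were searched for CCAAT, for E2F-type words (TTTCCCGC, TTTCGCGC, TTTGCCGC, TTTGGCGC) and for the CHR-type word TTTGAA or its variant TTCGAA. The word CCAAT was found at 10 of the 12 starts and in 6 of the 8 genes, all 4 partners among them along with ATM and MTOR, against 32% of 35116 such windows. That share is per window and not per gene, and the windows of the 3 listed starts of CHEK1 overlap and hold 1 of these words in common. No start of a member held an E2F-type word, against 2.79% of windows. A CHR-type word was found before 1 start of ATM and before that of MTOR, against 14.3%. The stretches that no GENCODE 29 exon covers are given below 5′ to 3′ on the strand of the gene, in lower case with matched words in capitals; ATTGG is CCAAT on the opposite strand. They lie at chr1:35769979-35770228 (minus strand) for CLSPN, chr11:125626035-125626228 (plus strand, the first listed start) for CHEK1 and chr1:11262552-11262801 (minus strand) for MTOR.
CLSPN: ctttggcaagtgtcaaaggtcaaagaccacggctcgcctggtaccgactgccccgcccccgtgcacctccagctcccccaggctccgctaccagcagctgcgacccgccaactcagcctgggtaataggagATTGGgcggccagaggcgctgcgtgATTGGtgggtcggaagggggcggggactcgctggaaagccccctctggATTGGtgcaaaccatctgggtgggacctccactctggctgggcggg
CHEK1: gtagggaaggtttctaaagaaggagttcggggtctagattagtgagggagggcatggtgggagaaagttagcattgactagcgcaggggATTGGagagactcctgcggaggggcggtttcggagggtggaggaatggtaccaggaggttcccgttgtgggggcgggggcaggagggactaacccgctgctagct
MTOR: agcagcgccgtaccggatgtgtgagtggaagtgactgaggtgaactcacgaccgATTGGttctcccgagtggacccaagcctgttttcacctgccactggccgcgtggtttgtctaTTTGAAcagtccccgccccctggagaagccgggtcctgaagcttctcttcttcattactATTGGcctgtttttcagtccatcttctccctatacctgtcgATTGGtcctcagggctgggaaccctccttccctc
CLSPN and MTOR each held 3 CCAAT words in the 250 bases and CHEK1 1 before its first listed start. A match describes the letters only.

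In control cells the 10 mRNAs were present at levels per length that differed widely. Divided by the length of all exons combined, MTOR stood highest at 19.0 ± 1.97 CPM per kb (SD, n = 3), followed by PRKDC at 12.6 ± 0.66, SMG1 at 7.77 ± 0.98 and CHEK2 at 4.84 ± 0.53. ATM (4.00 ± 0.42) overlapped CHEK1 (3.43 ± 0.47) over the 3 libraries, CLSPN (2.94 ± 0.12) overlapped TRRAP (2.79 ± 0.30), and ATR (1.73 ± 0.26) overlapped ATRIP (1.53 ± 0.15). The other neighbours in this order did not overlap. With the longest coding transcript as the length, TRRAP and CLSPN changed places and SMG1 overlapped both PRKDC and CHEK2. CHEK1 then overlapped TRRAP, and the pairs that overlapped by combined exon length no longer did.

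The 3 lowest doses left no member past the threshold. By edgeR's quasi-likelihood test with Benjamini-Hochberg adjustment over all features, 0 members had an adjusted p under 0.05 at 0.01, 0.1 and 1 µM, where 0.0279%, 0% and 0.106% of features were called. An unadjusted p under 0.05 was reached by 1, 0 and 1 members, and DESeq2's Wald test called 0, 0 and 1. Without the set in the fit, the member nearest to a call was ATRIP, whose level at 1 µM was 11.2, 9.68 and 11.1 CPM against 8.80, 8.72 and 7.32 in control. All 3 libraries lay above all 3 controls, with a log2 fold change of 0.36 ± 0.10 (SE) and an adjusted p of 0.128. With the set as a term 0 members were called at these doses, and an unadjusted p under 0.05 was reached by 2, 1 and 2. The nearest was then ATM at 0.01 µM, which read 82.6, 73.7 and 64.7 CPM against 101, 84.4 and 102 in control. Its 3 libraries lay below all 3 controls (-0.38 ± 0.11, adjusted p = 0.0646, and 0.107 in set A alone). PRKDC read 164.9 and 189 CPM in the set A libraries at 1 µM and 269 in the set B library.

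Across all 7 groups, the joint test of the 6 doses called 10 of the 10 members, where 73.6% of features were called. Adjusted p ran from 6.63e-10 for CHEK1 to 0.0091 for MTOR. With the set as a term it again called 10, against 59.8% of features, with the highest adjusted p of 0.0291 at MTOR.

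At 10 µM, ATR and PRKDC passed the threshold, both higher, and 14.8% of all features were called. ATR, the kinase of stalled replication forks, read 21.4, 18.5 and 25.0 CPM in control and 29.3, 27.2 and 33.7 at 10 µM, without overlap (log2 fold change 0.48 ± 0.16, adjusted p = 0.0498, edgeR). PRKDC, the catalytic subunit of DNA-PK, read 200.4, 182 and 199.9 CPM in control and 314, 306 and 372 at 10 µM (0.77 ± 0.16, adjusted p = 0.0056). All 10 µM libraries are of set B and all controls of set A. With the set as a term 0 members were called, as were 0.0279% of features, and the changes were 0.25 ± 0.21 for ATR and 0.17 ± 0.16 for PRKDC, so that dose and set cannot be told apart here.

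**Figure D1:**
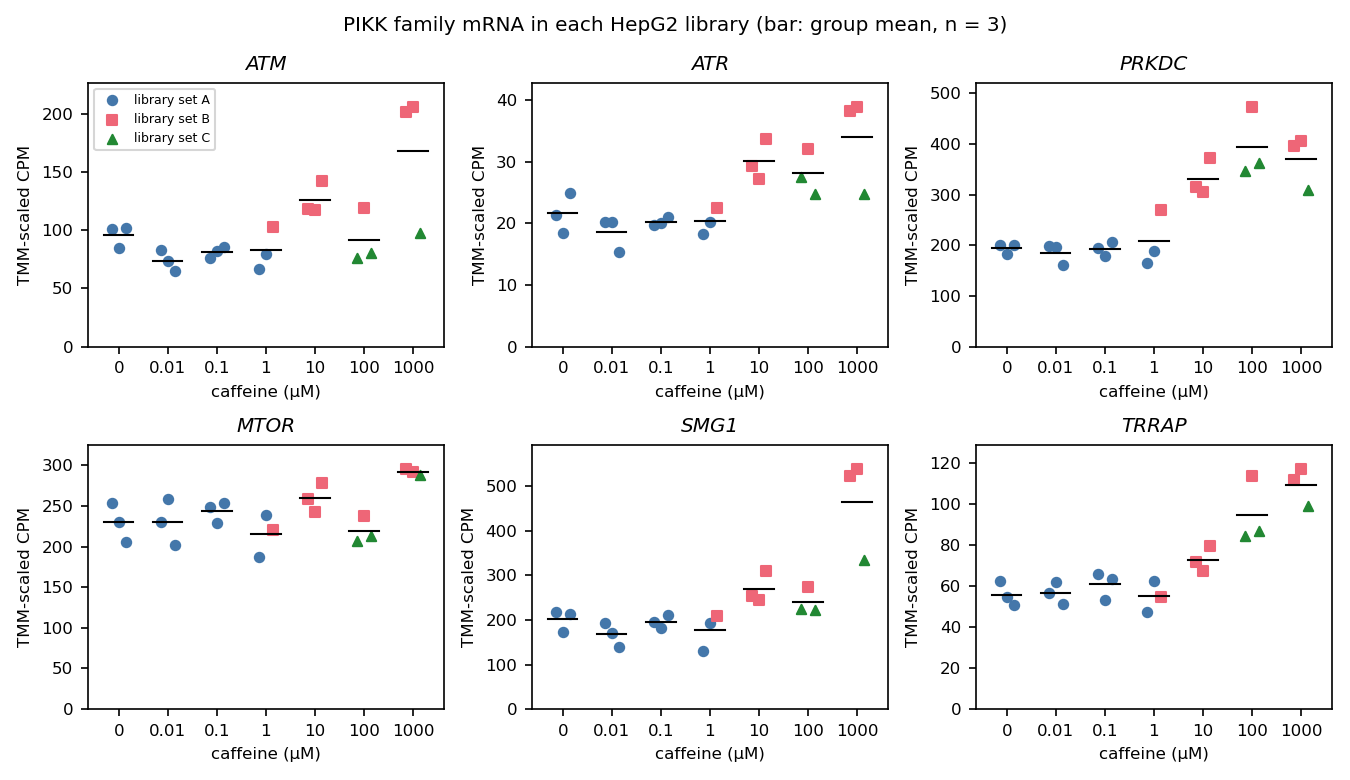
TMM-scaled CPM (y axis) of the 6 PIKK family mRNAs in each library by caffeine dose in µM (x axis); markers show the library set and bars the mean of 3 libraries. At 1000 µM the mean of each of the 6 lies above its control mean, and the set C library lies below both set B libraries.

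At 1000 µM all 6 PIKK family mRNAs rose above control, where 57.6% of features were called and 28.5% were called higher. Their median log2 fold change was 0.87, against -0.01 for all features, and 0.54 against -0.03 with the set as a term. Without the set in the fit, the largest change of the 6 was in SMG1, the kinase of nonsense-mediated decay. It read 219, 172 and 214 CPM in control and 524, 539 and 335 at 1000 µM. Its 3 treated libraries lay above all controls (log2 fold change 1.21 ± 0.19, SE, adjusted p = 2.22e-05, edgeR). TRRAP, the scaffold of histone acetyltransferase complexes, rose from 62.3, 54.5 and 50.5 CPM to 112, 117 and 98.9 (0.97 ± 0.13, adjusted p = 3.16e-06).

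PRKDC read 396, 406 and 308 CPM at 1000 µM, again above all controls (0.93 ± 0.16, adjusted p = 6.02e-05). ATM, the kinase of double-strand breaks, was uneven. It read 201 and 206 CPM in the set B libraries and 97.9 in the set C library, which lay within the control range of 84.4 to 102 CPM (0.82 ± 0.23, adjusted p = 0.0057). ATR showed the same split, with 38.2 and 38.9 CPM in set B and 24.7 in set C against 18.5 to 25.0 in control (0.66 ± 0.16, adjusted p = 0.0016). MTOR moved least, from 254, 231 and 206 CPM to 296, 291 and 288, above all controls (0.34 ± 0.10, adjusted p = 0.0086).

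Cell type markers moved at the same dose. Of the 9 hepatocyte and HepG2 markers 5 were called lower at 1000 µM, AFP (-1.40), FGB (-1.33), ALB (-0.98), TF (-0.81) and SERPINA1 (-0.81), and 2 higher, APOB (0.71) and TTR (0.46), with a median log2 fold change of -0.81. In the fit with the set 6 were lower and 2 higher (median -0.70), where 38% of features were called. Their summed level was 34645 to 42832 CPM in control, 33712 to 35058 at 100 µM and 28173 to 29541 at 1000 µM. At 100 µM 4 were lower and 2 higher (median -0.03), between 100 and 1000 µM 6 fell and 1 rose (median -0.43), and within set B 6 were lower and 3 higher at 1000 than at 10 µM (median -0.81), where 69.1% of features were called. CD68, the 1 marker of other cell types with enough counts to test, was lower at 1000 µM (-0.80, and -1.16 with the set). The 7 markers of other cell types summed to 40.9 to 55.2 CPM in control and 18.4 to 46.0 at 1000 µM. The part of these markers in the values of the 10 members was not tested.

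Once the set was a term, 4 of the 6 family members were called at 1000 µM, all higher, against 38% of features called. These were TRRAP (1.07 ± 0.20, adjusted p = 3.71e-04), SMG1 (0.97 ± 0.27, adjusted p = 0.0092), ATM (0.53 ± 0.20, adjusted p = 0.0476) and PRKDC (0.45 ± 0.17, adjusted p = 0.0397). ATR (0.56 ± 0.22, adjusted p = 0.05004) and MTOR (0.33 ± 0.18, adjusted p = 0.174) were not.

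At 100 µM 2 of the 6 family members passed the threshold by this test, PRKDC and TRRAP, both higher, where 46.6% of features were called and 23.6% were called higher. PRKDC read 346, 474 and 363 CPM, all above its controls (1.02 ± 0.16, adjusted p = 3.99e-05), and TRRAP read 84.1, 113 and 86.8 (0.77 ± 0.13, adjusted p = 8.49e-05). Both stayed past the threshold with the set as a term (0.67 ± 0.18 and 0.96 ± 0.21), where 17.3% of features were called. ATM (-0.06 ± 0.23), MTOR (-0.07 ± 0.10), SMG1 (0.25 ± 0.18) and ATR (0.38 ± 0.16, adjusted p = 0.0546) did not pass. The call of ATR depended on the setting: 7 alternatives gave one, with changes of 0.38 to 0.51. These were DESeq2's Wald test (adjusted p = 0.0460), no filter on low counts (0.0458), a filter at a mean of 5 CPM (0.0486), and leaving out replicate 3 of 1000 µM (0.0167), of control (0.0239), of 100 µM (0.0412) or of 0.01 µM (0.0484).

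The PIKK family transcripts are long, with 12.1 to 26.0 kb of combined exon each, and other long genes moved at the top dose too. Of the 1538 tested genes with at least 10 kb of exon, 43.2% were called higher at 1000 µM and 20.5% lower (median log2 fold change 0.23), against 28.4% and 30.9% of shorter genes (median -0.03). At 100 µM long genes had a median of -0.01. The part of length in their values was not tested.

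SMG1 counts are uncertain because the table holds 7 pseudogene copies, SMG1P1 to SMG1P7. The most abundant, SMG1P1, had 25160 reads over all libraries against 172447 for SMG1. The copies did not move alike at 1000 µM. SMG1P4 changed by 1.95, SMG1P3 by 1.74, SMG1P1 by 1.63, SMG1P2 by 0.58, SMG1P5 by 0.29 and SMG1P7 by -0.61 on the log2 scale, all with adjusted p under 0.05, and SMG1P6 was not called (-0.22, adjusted p = 0.620). Under the set term SMG1P4 (2.55, adjusted p = 0.0274), SMG1P3 (1.56, adjusted p = 6.22e-04) and SMG1P1 (1.47, adjusted p = 0.0050) were still called. SMG1P2 (0.35, adjusted p = 0.248), SMG1P5 (-0.05, adjusted p = 0.827), SMG1P6 (-0.38, adjusted p = 0.694) and SMG1P7 (-0.85, adjusted p = 0.139) were not.

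The 4 checkpoint partners all rose at 100 µM, where 46.6% of features were called and 23.6% were called higher. They had a median log2 fold change of 0.43 against -0.01 for all features. With the set as a term it was 0.68 against -0.02, and 2 of the 4 were called, where 17.3% of features were called. CHEK1, the effector kinase of ATR, had the largest change of the 10 members at this dose. It read 20.4, 21.1 and 26.0 CPM in control and 50.0, 48.5 and 52.1 at 100 µM, a 2.23-fold rise with no overlap (log2 fold change 1.16 ± 0.08, SE, adjusted p = 3.57e-09, edgeR). The libraries of sets B and C at this dose differed by less than 4 CPM, and with the set as a term the change was 1.08 ± 0.16 (adjusted p = 1.06e-04).

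CHEK2, the effector kinase of ATM, read 20.1, 20.7 and 24.5 CPM in control and 28.5, 31.1 and 28.4 at 100 µM (0.43 ± 0.09, adjusted p = 3.99e-04). ATRIP, the partner that ATR needs to bind single-stranded DNA, read 8.80, 8.72 and 7.32 CPM and then 10.1, 10.7 and 12.1 (0.40 ± 0.10, adjusted p = 0.0033). With the set as a term, CHEK2 kept its size but not its call (0.44 ± 0.16, adjusted p = 0.07), and ATRIP was 0.28 ± 0.19 (adjusted p = 0.348). CLSPN, the adaptor between ATR and CHEK1, read 16.1, 15.2 and 16.4 CPM in control and 18.1, 27.2 and 18.0 at 100 µM (0.42 ± 0.14, adjusted p = 0.0208). The high library is replicate 2, of set B, without which the change was 0.18 (adjusted p = 0.224). The call was also lost without replicate 2 of control (0.38, adjusted p = 0.0711) and with control and 100 µM libraries alone (adjusted p = 0.0744). With the set as a term it was 0.93 ± 0.15 (adjusted p = 1.79e-04).

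**Figure D2:**
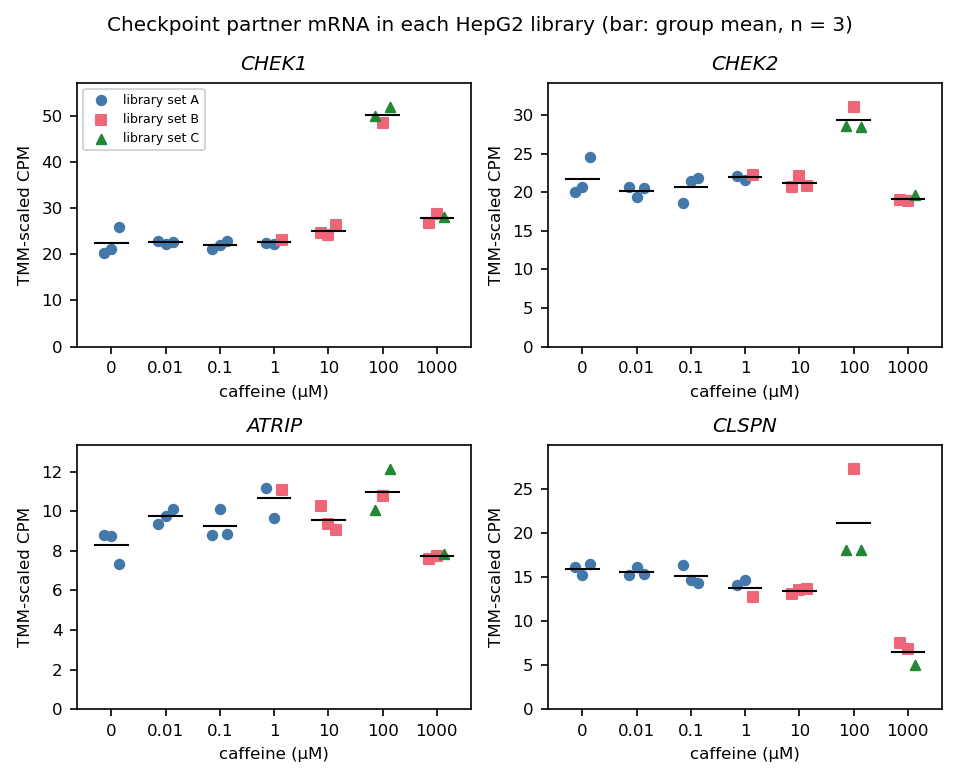
TMM-scaled CPM (y axis) of the 4 checkpoint partner mRNAs in each library by caffeine dose in µM (x axis); markers show the library set and bars the mean of 3 libraries. CHEK1 peaks at 48.5 to 52.1 CPM at 100 µM, and CLSPN is lowest at 5.02 to 7.50 CPM at 1000 µM.

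At 1000 µM the partners parted. CLSPN fell to 7.50, 6.84 and 5.02 CPM, below every other library (log2 fold change -1.29 ± 0.15, adjusted p = 4.31e-07, edgeR), where 29.1% of features were called lower. In the fit with the set CLSPN had a change of -0.96 ± 0.14 (adjusted p = 2.14e-05). CHEK1 read 26.8, 28.7 and 28.1 CPM, still above all controls but far below its level at 100 µM (0.31 ± 0.08 against control, adjusted p = 0.0038). That call was lost with the set as a term (0.25 ± 0.15, adjusted p = 0.209) and with control and 1000 µM libraries alone (adjusted p = 0.0721). CHEK2 read 19.0, 18.9 and 19.7 CPM (-0.18 ± 0.09, adjusted p = 0.0784) and ATRIP 7.58, 7.76 and 7.84 (-0.10 ± 0.10, adjusted p = 0.405), and neither passed. CHEK2 was called without replicate 1 of control (-0.24, adjusted p = 0.0396).

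Some member loci overlap other genes, and whether reads were counted by strand is not given in the sources used here. CHEK1 shares its strand with STT3A, an oligosaccharyltransferase gene at 312 CPM in control, 375 at 100 µM and 309 at 1000 µM on average. TREX1, inside the ATRIP locus, had at most 25 counts in a library. HSCB, opposite CHEK2, stood at 7.26 CPM in control and 9.05 at 1000 µM. NPAT, opposite ATM, stood at 23.0 and 21.0, and SMURF1, opposite TRRAP, at 30.0 and 35.3.

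The direct comparison of 1000 with 100 µM uses no control library. It called 7 of the 10 members, 3 family members higher and all 4 partners lower, where 44% of features were called, 21.8% higher and 22.3% lower. With the set as a term, which compares doses within sets B and C, the 7 calls were the same members, against 46.3% of features. CLSPN had the largest change, -1.71 ± 0.15 on the log2 scale (adjusted p = 2.48e-08, edgeR) and -1.89 ± 0.08 with the set. In set B it read 27.2 CPM at 100 µM and 7.50 and 6.84 at 1000 µM, and in set C 18.1 and 18.0 against 5.02.

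CHEK1 fell by 0.85 on the log2 scale (± 0.08, adjusted p = 1.46e-07) and by 0.83 with the set, CHEK2 by 0.62 (± 0.09, adjusted p = 1.07e-05) and 0.63, and ATRIP by 0.51 (± 0.10, adjusted p = 5.43e-04) and 0.49. For none of the 4 partners did the libraries of the 2 doses overlap. Among the PIKK family, SMG1 was higher at 1000 µM by 0.96 ± 0.19 (adjusted p = 4.11e-04) and by 0.77 with the set. ATM was higher by 0.88 ± 0.23 (adjusted p = 0.0051) and by 0.56 with the set, and MTOR by 0.41 ± 0.10 (adjusted p = 0.0032) and 0.38. In set C, ATM read 75.9 and 80.6 CPM at 100 µM against 97.9 at 1000 µM, and in set B 119 against 201 and 206. Within the fit with the set, ATM (0.32, adjusted p = 0.124) and SMG1 (0.58, adjusted p = 0.0539) were no longer called without replicate 2 of 100 µM, the sole set B library of that dose. MTOR (0.30, adjusted p = 0.115) was no longer called without replicate 3 of 1000 µM, the sole set C library of that dose.

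ATR (0.27 ± 0.16, adjusted p = 0.176), TRRAP (0.20 ± 0.13, adjusted p = 0.214) and PRKDC (-0.09 ± 0.16, adjusted p = 0.673) did not pass between the top doses. ATR passed without replicate 3 of 1000 µM (0.45, adjusted p = 0.0113) and TRRAP without replicate 2 of 100 µM (0.35, adjusted p = 0.0328). With the set in the fit PRKDC had a change of -0.22 ± 0.09 (adjusted p = 0.0645), and there it was called lower without replicate 3 of 10 µM (-0.22, adjusted p = 0.0438). The median change of the 10 members was 0.06, against 0.00 for all features. It was 0.34 over the 6 family members and -0.73 over the 4 partners. With the set as a term these medians were -0.06, 0.01, 0.25 and -0.73 in the same order. Long genes were called higher in 41.4% and lower in 12.4% of cases in this comparison, and the part of length was again not tested.

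**Figure D3:**
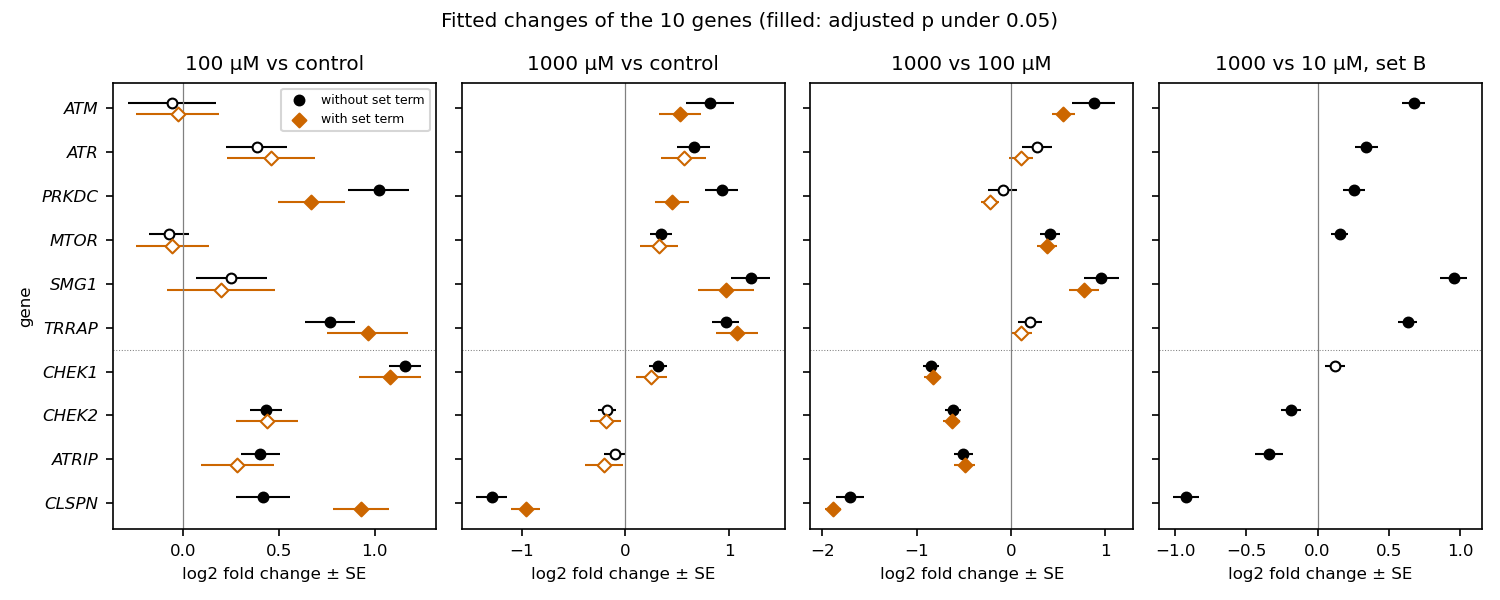
Log2 fold change (x axis, a separate scale in each panel) with its standard error for the 10 genes (y axis) in 4 comparisons, without (circles) and with (diamonds) the library set as a term; filled symbols have an adjusted p under 0.05. In the third panel the 4 partners lie between -0.49 and -1.89 and the 6 family members between -0.22 and 0.96.

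Within set B alone, 2 libraries at 1000 µM were compared with 3 at 10 µM in a fit of their own over 17090 features. Here 9 members passed, where 69.1% of features were called, 34.1% higher and 35% lower. All 6 family members were higher at 1000 µM: SMG1 by 0.96 ± 0.10, ATM by 0.68 ± 0.08, TRRAP by 0.63 ± 0.06, ATR by 0.34 ± 0.08, PRKDC by 0.26 ± 0.08 and MTOR by 0.16 ± 0.06 on the log2 scale (adjusted p from 2.64e-06 to 0.0322, edgeR). ATM read 118, 117 and 142 CPM at 10 µM against 201 and 206 at 1000 µM. CLSPN fell by 0.92 ± 0.09 from 13.1, 13.6 and 13.7 CPM to 7.50 and 6.84 (adjusted p = 1.59e-06). ATRIP (-0.34 ± 0.10) and CHEK2 (-0.18 ± 0.07) were also lower, and CHEK1 did not pass (0.12 ± 0.07, adjusted p = 0.133). Without replicate 1 of 1000 µM, which leaves 1 library at that dose, 5 members passed. Single libraries decided several of the smaller changes. The call of MTOR was lost without replicate 1 (adjusted p = 0.100) or 2 (0.147) of 10 µM and without replicate 1 (0.154) or 2 (0.121) of 1000 µM. PRKDC was not called without replicate 1 of 10 µM (0.0558) or replicates 1 (0.0560) or 2 (0.0968) of 1000 µM. CHEK2 was not called without replicate 2 of 10 µM (0.109), replicates 1 (0.132) or 2 (0.114) of 1000 µM, or by DESeq2's Wald test (0.115), and ATRIP not without replicate 1 of 1000 µM (0.0604). CHEK1 was called without replicate 3 of 10 µM (0.0443). SMG1, ATM, TRRAP, ATR and CLSPN were called in each of these fits. Long genes were called higher in 52.1% and lower in 24.9% of cases.

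The proteins that fold and assemble PIKKs, the TTT complex (TELO2, TTI1, TTI2) with the R2TP and HSP90 chaperones, formed the first of 8 pathway lists, with 9 genes. The counts of every list stand against the features called overall: 46.6% at 100 µM (23.6% higher and 22.9% lower), 57.6% at 1000 µM (28.5% and 29.1%) and 44% between these doses (21.8% and 22.3%). Among the chaperones, at 100 µM 4 were called higher and 1 lower, and at 1000 µM 1 higher and 3 lower (median log2 fold changes of 0.04 and 0.08, against -0.01 for all features at both doses). The set term moved the medians to 0.15 and -0.11. TELO2 rose from 11.5 ± 1.66 CPM (SD, n = 3) to 20.4 ± 5.91 at 100 µM (log2 fold change 0.83 ± 0.17), and was not called with the set as a term (0.52 ± 0.27, adjusted p = 0.208). HSP90AA1, the inducible cytosolic HSP90, fell from 2177 ± 316 to 1429 ± 92.9 CPM at 100 µM and 793 ± 45.0 at 1000 µM (log2 fold change -1.46 ± 0.09, -1.25 with the set). At 100 µM its change was -0.61, and the call was lost with the set (-0.36, adjusted p = 0.127). TTI1 rose slightly at 1000 µM, from 37.1 ± 0.35 to 43.8 ± 4.31 CPM, a change of 0.24 ± 0.08 that was 0.22 ± 0.13 and not called under the set term (adjusted p = 0.207). From 100 to 1000 µM 0 were called higher and 6 lower.

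Checkpoint targets, the cyclins, CDKs and CDC25 phosphatases that CHEK1 and CHEK2 control along with WEE1, PKMYT1 and PLK1, were the list with the most calls at 100 µM. Of 11 genes 10 were called higher and 0 lower, with a median of 1.01 on the log2 scale against -0.01 for all features. With the set as a term 9 were called higher and 0 lower, against 17.3% of features called. PLK1, a mitotic kinase, rose from 44.0 ± 4.26 to 155 ± 22.3 CPM (1.81 ± 0.18, and 1.79 with the set). At 1000 µM 6 were called higher and 2 lower, with a median of 0.33. That median was 0.02 with the set as a term (5 higher, 2 lower), and in set B the list had 5 higher and 6 lower with a median of -0.23, where 69.1% of features were called, 34.1% higher and 35% lower. CDK1, the mitotic CDK, stood at 79.0 ± 5.63 CPM against 36.3 ± 6.66 in control (1.12 ± 0.11). CCNE1, the cyclin of S phase entry, fell from 22.2 ± 1.01 to 12.4 ± 2.56 CPM (-0.85 ± 0.14, and -0.54 with the set). The comparison of 1000 with 100 µM called 0 higher and 9 lower, with a median of -0.75.

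Among 11 ATR activators and fork sensors, 6 were called higher and 1 lower at 100 µM, and 3 higher and 6 lower at 1000 µM (medians of 0.28 and -0.25). RAD1, a subunit of the 9-1-1 clamp that activates ATR, rose from 8.15 ± 0.23 CPM to 26.6 ± 1.47 at 100 µM and 26.9 ± 0.92 at 1000 µM. Its changes were 1.71 ± 0.10 and 1.72 ± 0.10 on the log2 scale, and 1.36 and 1.40 with the set. ETAA1, which activates ATR at RPA-coated DNA, fell from 46.3 ± 6.07 to 34.0 ± 2.83 and 26.6 ± 1.61 CPM. At 100 µM its change was -0.45, and -0.33 without a call with the set (adjusted p = 0.169). In the direct comparison 2 were higher and 8 lower at 1000 µM.

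Of 10 ATM activators and mediators, 1 was called higher and 0 lower at 100 µM, and 2 higher and 3 lower at 1000 µM (medians of -0.02 and -0.08). RAD50, a subunit of the MRN complex that senses breaks, rose from 67.8 ± 5.98 to 84.6 ± 2.06 and 106 ± 3.26 CPM, where the change at 100 µM was 0.32, and 0.22 without a call with the set (adjusted p = 0.446). H2AX, the histone variant phosphorylated at breaks, fell at 1000 µM from 45.9 ± 5.56 to 21.0 ± 2.30 CPM (-1.13 ± 0.15, and -0.57 with the set). Against 100 µM, 1 was higher and 3 were lower at 1000 µM.

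Of 7 partners of DNA-PK in end joining, 2 were called higher and 3 lower at 100 µM, and 1 higher and 3 lower at 1000 µM (medians of 0.13 and -0.20). The 4 of 7 at 1000 µM lie at the share of all features called, and among so few genes neither count is a result about the list. XRCC6, which encodes Ku70, rose from 408 ± 17.5 to 492 ± 40.8 CPM at 100 µM. The ligase LIG4 fell from 21.9 ± 3.16 to 11.4 ± 0.40 CPM at the same dose. Its cofactor XRCC4 fell at 1000 µM from 17.6 ± 3.47 to 6.73 ± 0.47 CPM (-1.39 ± 0.13, and -1.05 with the set), and NHEJ1 rose from 20.3 ± 1.48 to 25.1 ± 0.61. Between the top doses 2 were called higher and 4 lower.

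MTOR complexes and their upstream control gave 3 higher and 3 lower of 10 tested genes at 100 µM and 2 higher and 4 lower at 1000 µM (medians of -0.25 and -0.27). PRR5L did not pass the filter. RICTOR, the defining subunit of mTORC2, rose from 31.7 ± 5.47 to 88.4 ± 17.7 CPM at 1000 µM (1.48 ± 0.16, and 1.28 with the set). Its change of 0.40 at 100 µM was 0.31 with the set and not called (adjusted p = 0.508). AKT1S1, which encodes the mTORC1 inhibitor PRAS40, fell from 152 ± 16.5 to 83.8 ± 17.3 and 51.9 ± 17.1 CPM (-0.86 ± 0.19 and -1.55 ± 0.20). Between the top doses 1 was called higher and 5 lower.

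In the SMG1 complex and decay factors, 2 of 9 genes were called higher and 5 lower at 100 µM, and 1 higher and 4 lower at 1000 µM (medians of -0.27 and -0.21). The medians in the fit with the set were -0.03 and -0.14, against -0.02 and -0.03 for all features. SMG8, a regulatory subunit bound to SMG1, rose from 23.4 ± 1.45 to 35.7 ± 1.18 and 34.2 ± 0.60 CPM. UPF3B, which links exon junctions to UPF1, fell from 45.9 ± 6.13 to 19.0 ± 2.82 and 23.0 ± 1.78 CPM (-1.27 and -0.999 on the log2 scale, and -0.98 and -0.61 with the set). Between the top doses 1 was called higher and 1 lower.

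The acetyltransferase complexes that contain TRRAP had 4 of 15 genes called higher and 2 lower at 100 µM, and 5 higher and 3 lower at 1000 µM (medians of 0.12 and 0.03). SGF29, a reader of methylated histone H3, rose from 4.95 ± 0.16 to 11.3 ± 2.07 and 12.1 ± 3.27 CPM. SUPT3H fell at 100 µM from 19.1 ± 1.77 to 13.0 ± 1.19 CPM and TAF6L at 1000 µM from 13.5 ± 1.58 to 7.22 ± 0.46. Between the top doses 4 were called higher and 3 lower.

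**Figure D4:**
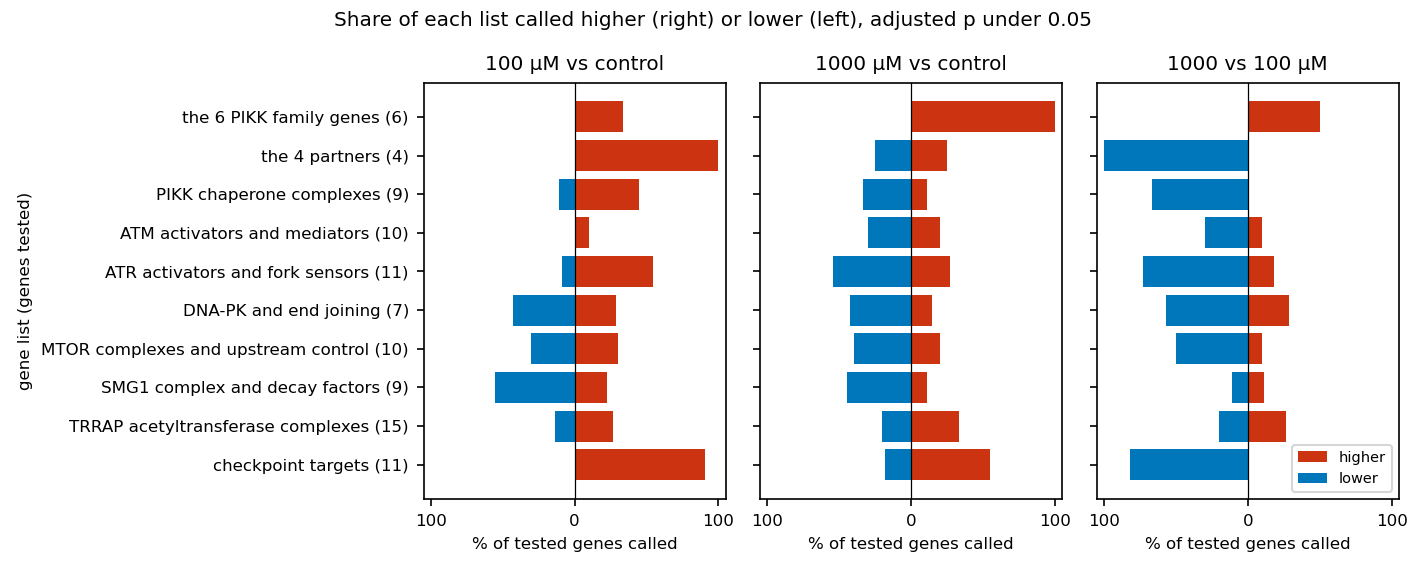
Percent of the tested genes of each list (y axis, with the number tested) called higher (right of 0) or lower (left of 0) at an adjusted p under 0.05 in 3 comparisons. The fit is the one without the set as a term. At 100 µM 10 of 11 checkpoint targets and all 4 partners are called higher, against 23.6% of all features. The 6 PIKK family genes are called higher in full at 1000 µM, against 28.5%. With the set as a term these counts are 9, 2 and 4, where 17.3% of features are called at 100 µM and 38% at 1000 µM.

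The members were also set against each other within library sets, where the points share a set and differ in dose. In set A, over 11 libraries of the lowest doses and control, the Pearson r of log2 CPM between 2 PIKK family genes ran from 0.24 (ATM and TRRAP) to 0.93 (MTOR and TRRAP). CHEK1 and CHEK2 had an r of 0.77. ATRIP went against all 9 other members, from -0.22 with TRRAP to -0.81 with ATM. In set B, over 7 libraries, the family correlated with each other from 0.48 (PRKDC and MTOR) to 0.996 (ATM and SMG1), and ATRIP ran against all 6 of them, from -0.39 with PRKDC to -0.96 with ATM. ATRIP was positive in set B with CLSPN (0.80), CHEK2 (0.68) and CHEK1 (0.17), against -0.62, -0.28 and -0.36 in set A. CLSPN and the PIKK family had r from 0.26 to 0.40 in set A and from -0.75 to 0.13 in set B. These values describe the libraries and were not tested.

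**Figure D5:**
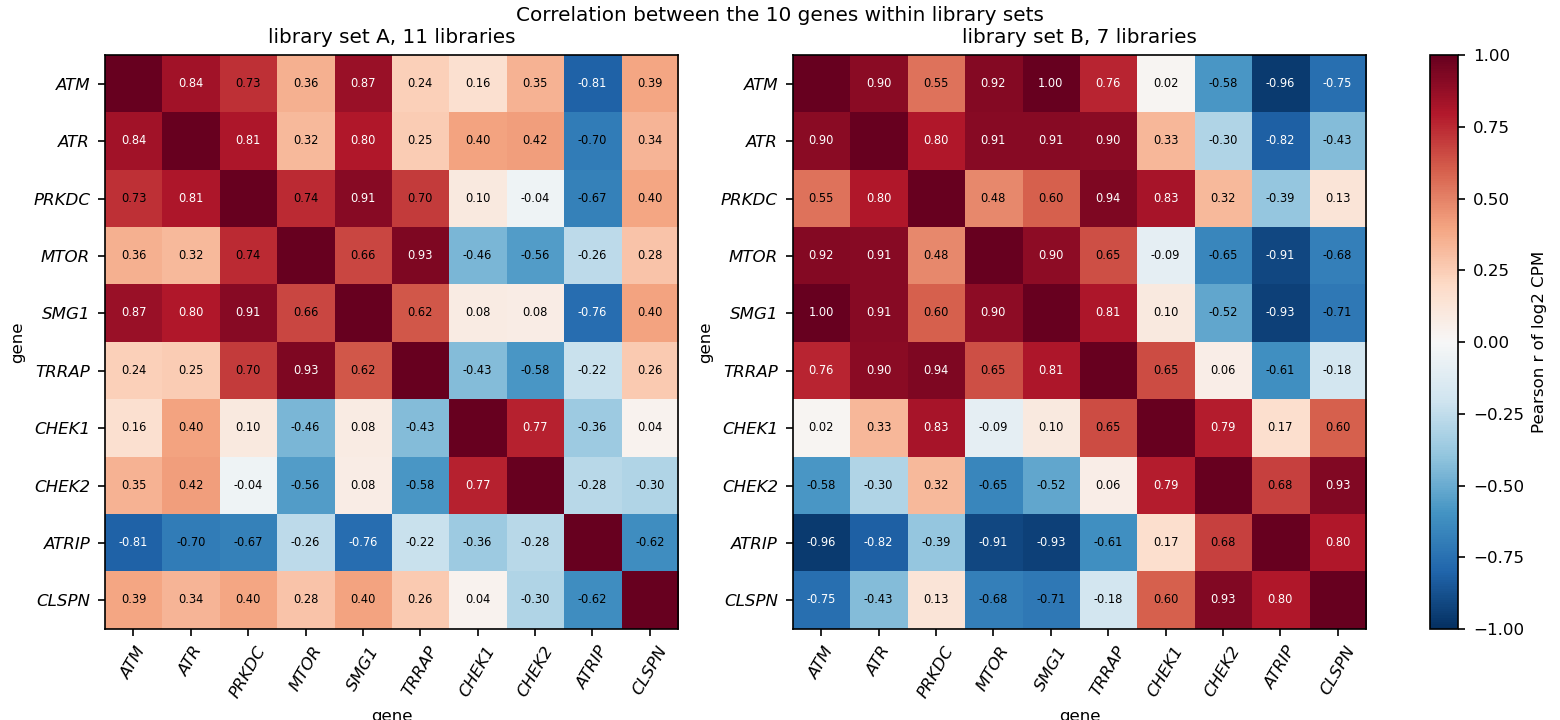
Pearson r of log2 CPM (colour, with its value) between each pair of the 10 genes over the 11 libraries of set A (left) and the 7 of set B (right). Pairs of PIKK family genes are positive in both sets, and ATRIP is negative against each of them in both.

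The mRNAs most like each member were sought over all 21 libraries among 10607 genes with a mean of at least 5 CPM, a measure that includes the differences between sets and doses. Nearest to ATM were UBXN7 (r = 0.98, and 0.96 in set A) and KDM5A (0.98, and 0.87). For ATR these were MON2 (0.98, and 0.93) and ZNF106 (0.97, and 0.85), for PRKDC CMTM4 (0.97, and 0.86) and GTF3C4 (0.97, and 0.54), and for MTOR SSH1 (0.94, and 0.91) and PDPR (0.93, and 0.95). SMG1 was nearest to CD109 (0.98, and 0.89) and PPP1R9A (0.98, and 0.89), and TRRAP to CREB3L2 (0.99, and 0.92) and ATP2A2 (0.97, and 0.85). The partners had other neighbours. CHEK1 was nearest to STMN1, a microtubule regulator (0.98, and 0.77), and POLA1, the catalytic subunit of DNA polymerase alpha (0.97, and 0.63). CHEK2 was nearest to RMI2 (0.92, and 0.90) and the replicative helicase subunit MCM6 (0.92, and 0.49). CLSPN was nearest to the transcriptional repressor E2F7 (0.96, and 0.81) and TCF19 (0.95, and 0.47), and ATRIP to HAUS7 (0.91, and 0.89) and PAFAH1B3 (0.89, and 0.92).

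By position in GENCODE 29 on GRCh38, the PIKK family genes lie at chr11:108222484-108369102 (ATM, plus strand), chr3:142449235-142578826 (ATR, minus), chr8:47773108-47960183 (PRKDC, minus), chr1:11106535-11262507 (MTOR, minus), chr16:18804853-18926454 (SMG1, minus) and chr7:98877933-99050831 (TRRAP, plus). The partners lie at chr11:125625136-125676255 (CHEK1, plus), chr22:28687743-28742422 (CHEK2, minus), chr3:48446710-48467645 (ATRIP, plus) and chr1:35720218-35769967 (CLSPN, minus). Counts are per gene, so exons and transcript forms were not separated.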

How the data were processed

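The deposited table holds whole-number read counts per feature, which the authors left without normalization, as the values show. Per the submitters' processing notes HISAT2, DESeq2 and GRCh38 were used. Versions, the counting tool, the annotation and the use of strand are not given in the sources used here. Another 21 per-sample columns were left out. Samples were grouped by the dose in their titles. Features were filtered with filterByExpr by group, TMM-scaled and compared by edgeR's robust quasi-likelihood F-test (version 4.0.16 under R 4.3.3) in 1 fit over 21 libraries, 2-sided, with Benjamini-Hochberg adjustment over 17951 features and a threshold of 0.05. CPM use the same scaling, with 2 as the prior count of log2 CPM. SEs are the size of the log2 fold change divided by √F. Library sets came from average-linkage clustering on centred log2 counts of 13 mitochondrial mRNAs. The fit was tested on simulated counts that held no library sets, so that test does not bear on the part of the sets. Alternatives were DESeq2 size factors, DESeq2 1.42.0 with its Wald test, testing without a filter or above a mean of 5 CPM, the replicate number as a block, the set as a term, control and 1 dose alone, and each library left out in turn. Chosen after seeing the data were set A alone, the set as a term with each library outside set A left out (1000 against 100 µM), and the longest transcript as the length. Same-numbered libraries did not deviate together (0 of 21 pairs of groups), so the numbers were not taken as pairs. No 2 replicates agreed within counting noise.

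Gene symbols came from a separate list of names matched by Ensembl identifier. Positions and lengths came from GENCODE 29, whose identifier versions equal those of the table for 6 of the 10 members (not ATR, SMG1, ATRIP or CLSPN). Promoters came from RefSeq. The members and gene lists were chosen with earlier results of these data known. Named genes are the 10 members, from each pathway list the called gene with the largest rise and the largest fall at 100 and at 1000 µM (mean of at least 5 CPM), and for each member the 2 genes with the highest Pearson r of log2 CPM over all libraries. The labels name no molecular identifiers, so counting error may understate the noise.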

Additional observations from a re-analysis of the deposited data

How the results depend on the processing

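At 100 and 1000 µM, between these doses and in set B, no called value of a member changed sign under any alternative run. Signs at the lower doses were not compared in this way. At 1 µM DESeq2's Wald test called 1 member where edgeR called 0. At 10 µM the 2 calls became 1 with DESeq2 size factors, 1 with the replicate block, 0 with the library set as a term and 5 with control and 10 µM libraries alone. Shares of all features called were computed only without and with the set as a term (14.8% and 0.0279% at 10 µM). Counts of members under the other alternatives therefore have no such share beside them and describe those fits only. At 1000 µM the 8 calls became 5 with the set as a term. At 100 µM the alternatives with every library gave 4 (set as a term) to 7, and the joint test gave 10 in each. Leaving out each library in turn gave between 1 and 3 calls at 10 µM. It gave between 5 and 7 for 100 µM, 8 or 9 for 1000 µM and 7 or 8 for 1000 against 100 µM. In set B calls ran from 5 (without replicate 1 of 1000 µM) to 10; the fits that leave 1 library at 1000 µM assume that it varies like those at 10 µM. The replicate block gave 10 in set B, where CHEK1 was called as well (0.16, adjusted p = 0.0454), and in the other comparisons changed only the call of ATR at 10 µM. Set A alone called 0 members at 0.01, 0.1 and 1 µM. The set as a term changed the counts of the pathway lists, where it called 17.3% of all features at 100 µM and 38% at 1000 µM. At 100 µM chaperones then had 1 higher and 0 lower, ATM activators 1 and 1, ATR activators 4 and 0, end joining 1 and 1, MTOR complexes 1 and 2, SMG1 complex 1 and 2, TRRAP complexes 3 and 1 and checkpoint targets 9 and 0. At 1000 µM these were 0 and 1, 1 and 2, 3 and 4, 1 and 2, 2 and 4, 1 and 3, 6 and 2, and 5 and 2 in the same order. The list medians at 100 and 1000 µM were then 0.07 and 0.03 for ATM activators, 0.27 and -0.13 for ATR activators, 0.11 and -0.19 for end joining, -0.10 and -0.28 for MTOR complexes, 0.25 and 0.25 for TRRAP complexes and 0.87 and 0.02 for checkpoint targets. ATRIP has the lowest control level of the 10. Its change at 1000 µM was -0.10 ± 0.10 (SE) and not called, while it was called at 100 µM, between the top doses and in set B.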
